A study of Mus musculus with 2 samples.

Results

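The genes of the cytosolic ribosomal proteins were described across 10 cell populations of the normal mouse aorta. The family was taken by symbol: Rpl or Rps followed by a digit, or Rpsa, Rplp0, Rplp1 or Rplp2, without the Rps6k kinases and without symbols that contain "-ps". This gave 85 of the 16971 genes in the count table. By name, 43 encode proteins of the large subunit, 31 of the small subunit and 3 of the P stalk. Another 7 are paralogs or retrogenes (Rpl6l, Rpl7l1, Rpl22l1, Rpl36al, Rpl39l, Rps27l and Rps27rt), and 1, Rps19bp1, matches the rule but encodes a protein that binds Rps19.

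The cells came from whole aortas of female C57/BL6 mice, 12 weeks old, with no allele or agent in any sample and, per the labels, harvested either on chow or on a Western diet; the table used here is the chow one. Perivascular fat was dissected away, the tissue was digested with collagenases, hyaluronidase and DNase for 1 hour at 37 °C, and red cells were lysed. Droplet libraries (10x Genomics v2) were made from 2 such aortas, which form 1 group. The authors' names for the populations were used as deposited: smooth muscle cells (VSMC), 2 fibroblast (Fibro), 3 endothelial (EC), 2 monocyte (Mono) populations, Macro and Neuron. The barcodes separate 2 libraries, here called library 1 and library 2, but the files do not say which is which aorta. Cells on the Western diet and libraries of low depth were not analysed here.

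The cytosolic ribosome is built from a small subunit, which reads the mRNA, and a large subunit, which joins amino acids and carries a flexible P stalk that recruits translation factors. Its proteins are made in near-equal numbers and their mRNAs are among the most abundant of most cells. Many of these mRNAs begin with a run of pyrimidines, the 5′ terminal oligopyrimidine (TOP) motif, through which their translation is tuned to nutrients and growth signals.

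Sequences around the annotated starts are shown for 3 members because a large part of the results turns on them: Rps27, its retrogene Rps27rt, and its paralog Rps27l. Each is given from 15 bases before to 15 bases from the RefSeq start (GRCm38.p6), 5′ to 3′ on the transcript strand. In the first pair the capitals mark the longest run of bases that both share, which is 14 bases long. In Rps27l, and in the 2 further members below, the capitals mark the longest run of C and T.

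Rps27 (chr3:90213634-90213663, minus strand): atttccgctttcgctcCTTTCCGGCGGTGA
Rps27rt (chr9:114982725-114982754, minus strand): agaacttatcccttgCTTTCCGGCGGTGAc
Rps27l (chr9:66946071-66946100, plus strand): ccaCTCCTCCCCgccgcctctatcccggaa
Rpl22l1 (chr3:28805493-28805522, plus strand): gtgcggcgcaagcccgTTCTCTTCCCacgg
Rpl35 (chr2:39005117-39005146, minus strand): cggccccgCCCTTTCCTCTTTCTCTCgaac

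Rpl22l1 is shown for its own pattern among the fibroblasts. Rpl35 is shown as the longest pyrimidine run (18 bases) among a few members, picked by name, whose windows were extracted. Run lengths of the other members were not taken. RefSeq promoters were matched for 64 of the 85 members. The letters CTTTCC, on the transcript strand within 50 bases of the start, were present in 32.8% of these against 5.37% of 26961 other genes. CCGGAAG, on either strand from 250 bases before to 50 bases after the start, was present in 40.6% against 9.85%. GGGCGG on either strand in that window was present in 62.5% against 38.1%, and AAGATGG in 15.6% against 7.26%. TATAAA, on the transcript strand in the 50 bases before the start, was present in 1.56% against 3.15%. These are letter matches, not binding sites, and annotated starts can be a few bases off. The other genes are all those with a RefSeq promoter, including genes absent from the count table. Expressed and silent genes were not separated, so the part of expression in these contrasts was not tested.

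The coding sequences of Rps27 and Rps27rt in GENCODE vM21 were identical over all 252 bases. Rps27l shared 61.9% of aligned coding bases with Rps27, and Rpl22l1 shared 67.5% with Rpl22. Near-identical copies are common in this family. Of 84 members with a complete coding transcript, 57 had at least 1 stretch of 50 bases within their last 300 that also occurs in a transcript of another gene, and in 42 such stretches made up over 50% of that end. All such stretches of Rps27 were also in Rps27rt, and all of Rpl10 were in Rpl10-ps3. Neither Rps27l, Rplp0, Rpsa, Rpl12 nor Rpl22 had one. How reads shared by copies were assigned is not given in the sources used here, so the levels of members with copies are uncertain.

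The 2260 cells of library 1 carried 11104066 UMIs (unique molecular identifiers, which count captured transcripts), and the median cell 4160.5. The 3191 cells of library 2 carried 19484171, and the median cell 5636. Only 12 barcodes occurred in both. The label Macro was at odds with its markers: macrophage markers made up 0.0486% of its UMIs against 3.25% in Mono 1. T and NK cell markers made up 0.235% of Macro UMIs and B cell markers 0.117%, as means of the libraries. In the other populations the highest such means were 0.00254% (T and NK, EC 2) and 0.00144% (B, Mono 1). In library 1, neutrophil markers made up 1.69% of Macro UMIs, and in library 2 none was found. The label Neuron held Schwann cell and neuron markers at 0.916% of UMIs, in 12 and 32 cells. The authors' names are kept as labels only.

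The family took up a very different part of the transcriptome from one population to the next. Members made up 13.5% of all UMIs, 11.7% in library 1 and 14.5% in library 2. In Macro they made up 28.5% of UMIs in library 1 and 33.0% in library 2 (mean 30.8% ± 3.14, SD, n = 2). In Neuron they made up 7.05% and 10.4% (8.74% ± 2.38). The ratio of Macro to Neuron was 4.05 in library 1 and 3.17 in library 2.

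Between these ends, Mono 2 stood at 19.8% and 24.0% (21.9% ± 2.94), EC 1 at 15.996% and 18.7% (17.3% ± 1.91) and Fibro 2 at 13.6% and 17.5% (15.54% ± 2.81). Mono 1 stood at 13.4% and 16.3% (14.8% ± 2.096), EC 3 at 12.4% and 16.1% (14.2% ± 2.61) and EC 2 at 11.4% and 13.4% (12.4% ± 1.39). VSMC, the most numerous cells, stood at 10.5% and 12.7% (11.6% ± 1.58), and Fibro 1 at 9.46% and 11.9% (10.7% ± 1.70). The order of the 10 populations was the same in both libraries. Macro and Mono 2 each stood clear of the population below, but from EC 1 downwards the library values of every neighbouring pair overlapped. Some pairs of populations of the same kind differed by steady ratios within a library. EC 1 over EC 2 was 1.40 in each, and Mono 2 over Mono 1 was 1.48 and 1.47. Fibro 2 over Fibro 1 was 1.43 and 1.48. Pairs with EC 3 were less steady. In library 1 EC 3 (12.4%) stood nearer to EC 2 (11.4%) than to EC 1 (15.996%). In library 2 EC 3 (16.1%) stood about midway between EC 2 (13.4%) and EC 1 (18.7%). These are shares, so a higher share of the family and a lower share of other transcripts cannot be told apart.

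**Figure D1:**
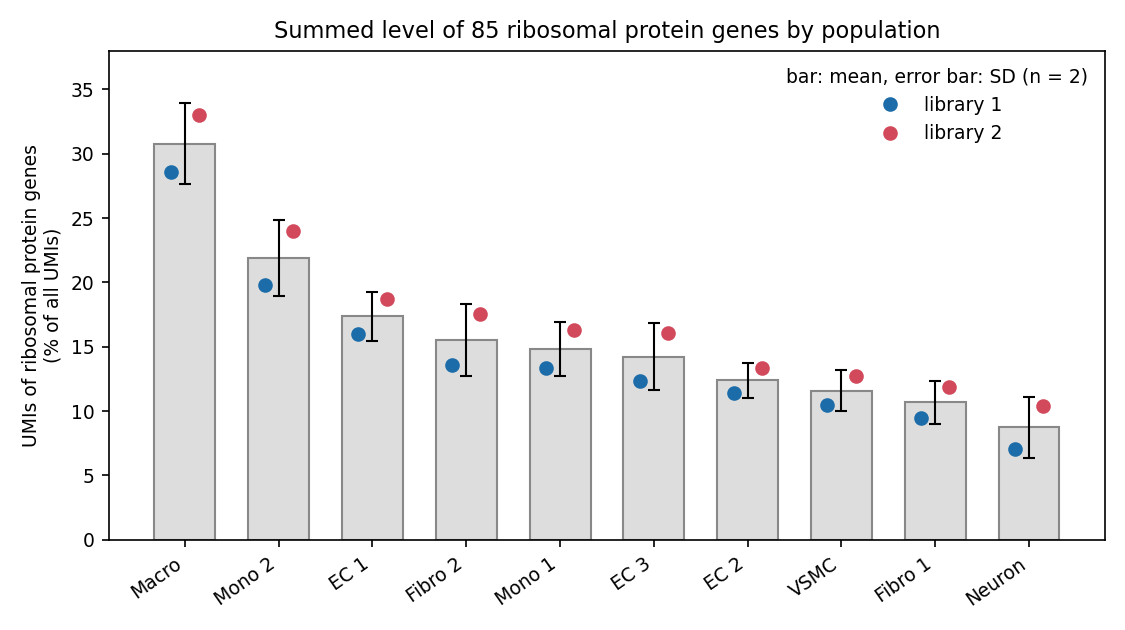
Share of UMIs (%) from the 85 ribosomal protein genes in each population, ordered by mean; bars are means, error bars SD (n = 2), points the 2 libraries. Macro stands highest at 28.5% and 33.0%, Neuron lowest at 7.05% and 10.4%, and library 2 is above library 1 in each of the 10 populations.

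The subunits moved largely together. The ratio of large to small subunit UMIs ran from 1.08 ± 0.002 in Macro to 1.33 ± 0.079 in Neuron (SD, n = 2), with 1.32 ± 0.012 in VSMC. The 2 subunits therefore kept within a narrow band while the family's share changed over 3-fold. By level (CPM, the UMIs of a gene scaled to the summed UMIs of the library and population), 76 of the 85 members were highest in Macro, 72 were lowest in Neuron and 5 were highest in Mono 2. The members richest in UMIs were Rpl41, with 3.27% of the family's UMIs, Rps29 with 3.22% and Rps27 with 2.53%. UMIs tag transcript ends and were not divided by length, and mapping to copies differs between genes, so this order is of UMIs and not of transcripts.

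To compare populations gene by gene, UMIs were summed per library and population and tested with edgeR's quasi-likelihood test, with library as a term. A call is a Benjamini-Hochberg adjusted p under 0.05 over the 10488 genes tested. Of the members, 84 were tested; Rpl39l, with 10 UMIs, was not. The populations were named from the expression of these same cells, so p-values are smaller than they should be and describe the named populations. P-values also rest on these 2 libraries alone. With library as a term, the overall difference between the libraries is taken out. What remains is how far the differences among populations vary between the 2 libraries, pooled over all populations.

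In the immune class (the mean of Mono 1, Mono 2 and Macro) against the means of the other classes, 82 of 84 members were higher and 0 lower, while 22.5% of all genes tested were higher and 27.7% lower. The members' median log2 difference was 0.89, against -0.11 over all genes. The class mean does not hold for each of its populations. By mean family share, Macro (30.8%) and Mono 2 (21.9%) stood above all others. Mono 1 (14.8%) stood below EC 1 (17.3%) and Fibro 2 (15.54%), and did so in each library. All 43 large subunit, all 31 small subunit and all 3 P stalk members were higher. Rpl32, a large subunit protein, stood at 5192 and 5774 CPM in Macro, 3858 and 4735 in Mono 2, and 2319 and 2628 in Mono 1 (libraries 1 and 2). In VSMC it stood at 1306 and 1572. Its log2 difference was 1.37 ± 0.07 (SE; edgeR adjusted p = 9.1e-17). Rps29 rose by 1.31 ± 0.07 and Rps13, also of the small subunit, by 1.31 ± 0.08. The 2 members not called were both paralogs, Rps27l at -0.16 ± 0.10 and Rpl7l1 at 0.06 ± 0.16.

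In VSMC, 62 of 84 members were lower and 0 higher (20.6% and 28.7% of all genes), with a median of -0.43 against 0.02. The small subunit had 27 of 31 members lower and the large subunit 30 of 43. Rps28 stood at 1341 and 1596 CPM in VSMC and within each library was lower in Neuron alone (1016 and 1485). Its difference was -0.93 ± 0.11. Rps27rt (-0.94 ± 0.12), Rps19 (-0.84 ± 0.10) and Rps27 (-0.83 ± 0.10) were the other named members (largest edgeR adjusted p of the 4 4.9e-08). VSMC also had the highest share of mitochondrially encoded UMIs, at 6.59% and 7.13%; all 13 of those genes were higher there. With cells over 10% mitochondrial UMIs left out, 51 members were lower.

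In the fibroblast class, 56 members were lower and 1 higher (19.3% and 27.6% of all genes), with a median of -0.29 against 0.00. Rpl27 fell by 0.55 ± 0.09, Rpl29 by 0.54 ± 0.09 and Rps3 by 0.49 ± 0.08 on the log2 scale (largest edgeR adjusted p 1.1e-05). The single member that rose was Rpl22l1. In the endothelial class, 44 were lower and 1 higher (15.7% and 17.4% of all genes), with a median of -0.20 against -0.04. The mean it was set against includes the immune class, where members were higher. By mean family share, EC 1 (17.3%), EC 3 (14.2%) and EC 2 (12.4%) all stood above VSMC (11.6%) and Fibro 1 (10.7%). Only EC 1 stood above Fibro 2 (15.54%). The class comparisons share the same populations, so they are not separate findings. Rpsa, also known as a laminin receptor precursor, fell by 0.71 ± 0.08 and Rplp0, the base of the P stalk, by 0.61 ± 0.08. Rps27rt rose by 0.29 ± 0.08 (edgeR adjusted p = 0.005), and lost the call with no filter on low counts, without the library term and in cells thinned to 1000 UMIs. With equal weight for each cell, the endothelial median turned to 0.02.

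Neuron had 81 of 84 members lower and 0 higher, against 3.73% lower and 5.17% higher of all genes. The median was -1.14 against -0.26 over all genes. Rps7 stood at 577 and 790 CPM in Neuron and at 1044 or more in every other population and library; it fell by 1.67 ± 0.15 (edgeR adjusted p = 6.0e-10). Rps29 fell by 1.53 ± 0.13, Rps4x by 1.50 ± 0.16 and Rps24 by 1.47 ± 0.15. The median over all genes depends on the scaling here: with RLE size factors it was -0.07, and the members' median -0.95.

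**Figure D2:**
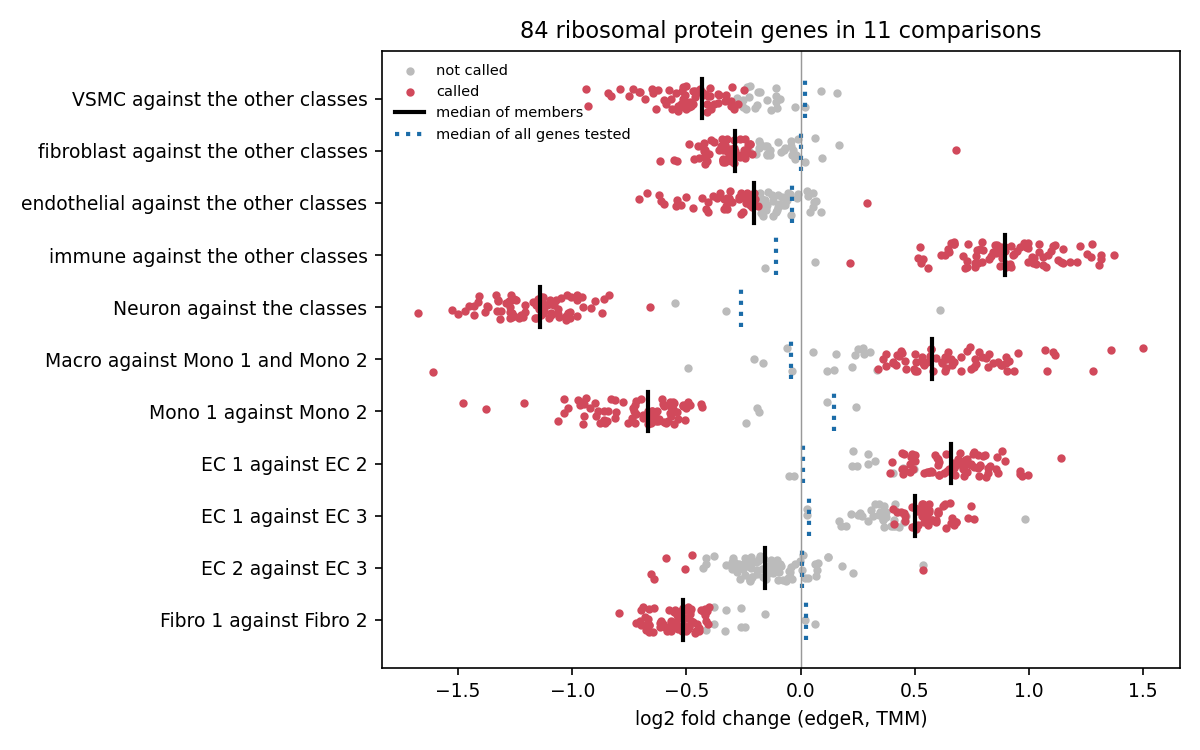
Log2 fold change (edgeR, TMM scaling) of each of the 84 tested members in the 11 comparisons; red points were called, grey were not, black lines mark the members' median and dotted blue lines the median of all genes tested. Members shift as a block to the right in the immune class (median 0.89) and to the left in Neuron (-1.14), and lie closest to the all-gene median in EC 2 against EC 3 (-0.16 against 0.01).

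Within the immune class the family separated the 3 populations. Macro was above the mean of Mono 1 and Mono 2 for 67 members and below it for 1 (8.84% and 10.7% of all genes), with a median of 0.57 against -0.04. Rps27 stood at 12253 and 12658 CPM in Macro, 4602 and 5711 in Mono 2, and 3320 and 3909 in Mono 1. Its difference was 1.36 ± 0.11. Rps27rt had the largest difference, 1.50 ± 0.13, and Rpl12 of the stalk base (1.28 ± 0.13) and Rpl13a (1.11 ± 0.11) came after Rps27 (largest edgeR adjusted p of these 4 3.2e-09).

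Macro cells were separated by the lymphocyte markers that Macro held, taking at least 2 UMIs of a list. The 104 cells with T and NK genes only had 32.7% ± 2.85 of their UMIs in the family (SD, n = 2), the 48 with B genes only had 29.4% ± 1.18, and the 14 with neither had 18.3% ± 3.10. Both lymphocyte-marked groups were above Mono 2 in each library, and the cells with neither were below it in each. These groups were cut on marker UMIs after the values were seen and carry no test.

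Mono 1 was below Mono 2 for 79 members and above it for none (8.11% and 9.01% of all genes), with a median of -0.67 against 0.14. Rplp0 stood at 1476 and 1528 CPM in Mono 1 and 3725 and 3929 in Mono 2, with no overlap. Its difference was -1.48 ± 0.15 (edgeR adjusted p = 5.0e-09). Rpsa fell by 1.38 ± 0.15, Rps7 by 1.21 ± 0.14, and Rps6, the substrate of S6 kinase, by 1.06 ± 0.14. Median depth differed, and with every cell thinned to 1000 UMIs 25 members were called, all lower, at a median of -0.38 against 0.42 over all genes.

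Among endothelial cells EC 1 stood apart. It was above EC 2 for 73 members and below it for none (11.1% and 9.23% of all genes), with a median of 0.66 against 0.01. Rpl10, a large subunit protein that joins late in assembly, stood at 2451 and 3188 CPM in EC 1 and 1355 and 1471 in EC 2. Its difference was 1.14 ± 0.16 (edgeR adjusted p = 1.0e-06). Rpl12, Rpsa and Rpl36a differed by 0.99 ± 0.17, 0.97 ± 0.16 and 0.96 ± 0.16. EC 1 was also above EC 3 for 51 members and below it for none (5.97% and 5.65% of all genes), at a median of 0.50 against 0.03. Rpl21 (0.76 ± 0.15), Rps27rt (0.75 ± 0.16), Rps15 (0.73 ± 0.14) and Rps26 (0.68 ± 0.15) led.

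EC 2 against EC 3 gave few calls. Of those tested, 5.95% were lower (5 members), near the 6.17% of all genes, and 1.19% were higher (1 member), below the 5.51% of all genes. The members leaned to the lower side, with 70 of 84 below 0 and a median of -0.16 against 0.01. Rpl12 was lower by 0.65 ± 0.18, Rpl10 by 0.64 ± 0.16, Rpl39 by 0.59 ± 0.14 and Rps3 by 0.51 ± 0.15 in EC 2, and Rpl27 was higher by 0.53 ± 0.17. In thinned cells Rpl12, Rpl10, Rpl39 and Rps3 lost the call, and with clusters made without the members Rpl27 lost it.

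Fibro 1 was below Fibro 2 for 73 members and above it for none (7.2% and 8.25% of all genes), with a median of -0.52 against 0.02. Rps12 stood at 652 and 983 CPM in Fibro 1 and 1124 and 1756 in Fibro 2, with no overlap. It fell by 0.80 ± 0.15 (edgeR adjusted p = 0.00013). Rps3a1 and Rps4x fell by 0.70 ± 0.14 and 0.70 ± 0.16. Rps27l, at 0.06 ± 0.16, was among the 11 not called. In the 7 comparisons with no member called in a direction, none had an unadjusted p under 0.05 in that direction by edgeR, and DESeq2 called 0 there.

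To see members move against the family, each was taken as a share of the family's UMIs. Over 83 members, the range of this share across populations had a median of 0.57 log2 units, beside a median difference between libraries of 0.11. These are unlike measures. The range is the highest minus the lowest of 10 population means. The other is the absolute difference of 2 libraries, averaged over populations. A range over 10 values is wider than a difference of 2 from spread alone, so the 2 medians cannot be compared directly. The range was under 0.5 for 30 members and over 1 for 7. The steadiest were Rpl6 (0.19), Rpl36 (0.19), Rpl6l (0.21) and Rpl11 (0.26). The share of Rpl6l differed more between libraries than between populations, by 0.44 on average and lower in library 2 in all 10. The widest was that of Rps27l at 3.04, followed by Rpl7l1 at 1.73, Rpl22l1 at 1.55, Rps29 at 1.25, Rpl12 at 1.15, Rps27rt at 1.09, Rpsa at 1.02 and Rpl36al at 0.99. Of these 8, 5 are paralogs or retrogenes. Rpl7l1 rests on 1610 UMIs and is the least certain.

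**Figure D3:**
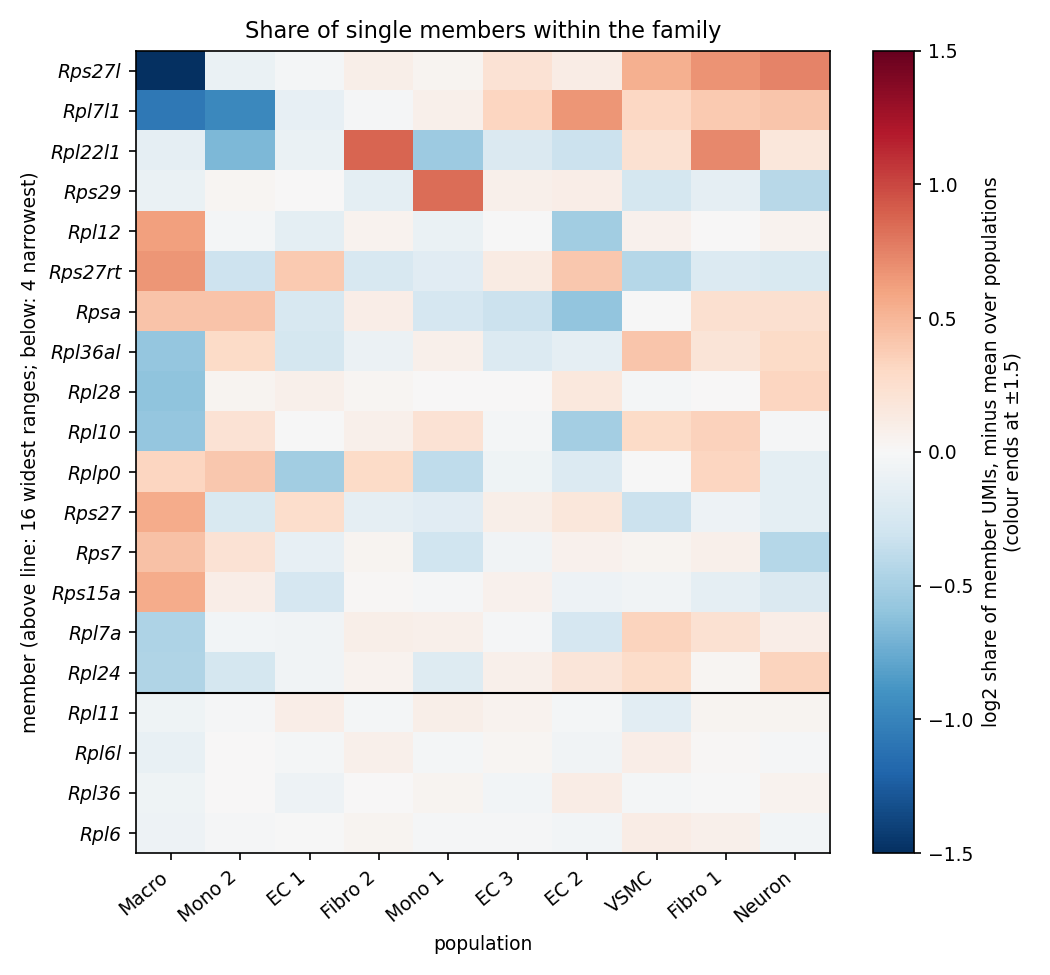
Log2 share of the family's UMIs held by single members, centred on each member's mean over populations, for the 16 members with the widest range and, below the line, the 4 with the narrowest. Rps27l is lowest in Macro (colour at the end of the scale), Rpl22l1 is highest in Fibro 2, Rps29 is highest in Mono 1, and Rpl6 is flat.

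Rps27l, a paralog of Rps27 known as a target of p53, ran against the family. It stood at 117 and 184 CPM in Macro, where most members were highest. In the other populations it stood between 290 and 530, highest in Mono 2. Macro was below Mono 1 and Mono 2 by 1.61 ± 0.20 on the log2 scale (edgeR adjusted p = 1.7e-07), the single member lower there. As a percentage of Rps27, Rps27l was 0.956 and 1.45 in Macro, and between 6.06 and 19.8 in the others. In Macro cells with T and NK genes only it stood at 143 and 139 CPM. In those with B genes only it stood at 33.8 and 342 CPM, on 2 and 20 UMIs. The library 2 value there lies within the range of the other populations.

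Rps27rt, whose coding sequence is that of Rps27, followed Rps27. It stood at 2163 and 1940 CPM in Macro and at 345 and 381 in VSMC. It made up between 13.1% and 19.8% of the Rps27 value in every population and library. Since the 2 share sequence, what part of the Rps27rt count comes from Rps27 transcripts was not tested.

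Rpl22l1, the paralog of Rpl22, a large subunit protein, was the single member higher in the fibroblast class. It stood at 1249 and 1452 CPM in Fibro 2 and 692 and 1002 in Fibro 1, against 435 to 859 in the endothelial populations, Mono 1 and Mono 2, 606 and 692 in VSMC, 392 and 545 in Neuron, and 1393 and 1281 in Macro. Fibro 2 was above every population other than Macro in each library, and above Macro in library 2, while Fibro 1 overlapped EC 1 and VSMC. It rose in the fibroblast class by 0.68 ± 0.09 (edgeR adjusted p = 1.9e-07), where Rpl22 itself fell by 0.40 ± 0.09 (edgeR adjusted p = 0.0003). In the endothelial class it fell by 0.62 ± 0.09, where Rpl22 stood at -0.10 ± 0.08 and was not called. Rpl22l1 was 224% and 179% of Rpl22 in Fibro 2, 160% and 174% in Fibro 1, 121% and 101% in VSMC, 117% and 87.2% in Macro, and 72.6% and 52.8% in Mono 2.

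Among the 5 members with a range whose share was highest in Mono 1 (with Rps28, Rplp1, Rpl35a and Rpl37a), Rps29 had the widest range. It held 5.80% and 6.14% of the family's UMIs in Mono 1 against 2.13% to 3.62% in the other populations and libraries. In CPM it stood at 7748 and 10020 in Mono 1 and 6442 and 8584 in Mono 2, and was not called between them. Rplp0 and Rpsa were low in Mono 1 and high in Mono 2, as given above. Rpl10 held 1.03% and 1.15% of the family's UMIs in Macro and 1.94% and 2.20% in Fibro 1. Its level in Macro, 2945 and 3802 CPM, was above that in Fibro 1 (1838 and 2611) and below that in Mono 2 (3746 and 4546), and Macro against Mono 1 and Mono 2 was not called (-0.20 ± 0.13).

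**Figure D4:**
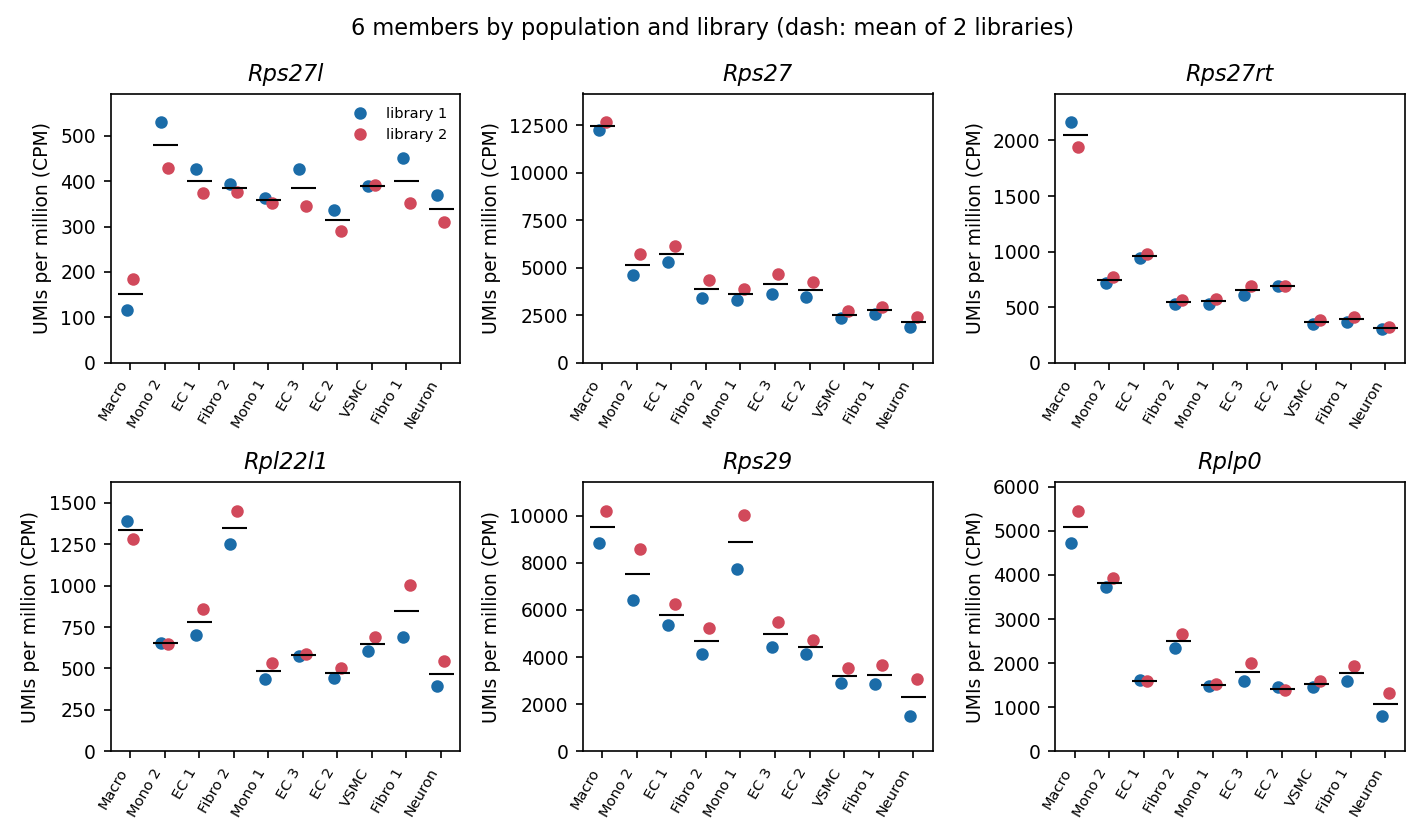
Levels (CPM) of 6 members by population and library; dashes are means of the 2 libraries, and each panel has its own axis from 0. Rps27 and Rps27rt share a shape with Macro far above the rest, Rps27l is lowest in Macro at 117 and 184 CPM, and Rpl22l1 is high in Fibro 2 and Macro.

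Other parts of the translation machinery were set beside the family. Fau, which encodes a small subunit protein, and Gnb2l1, a scaffold on the small subunit, fall outside the rule by name. Both were higher in the immune class (Fau by 1.51 ± 0.07) and lower in VSMC, the fibroblast class and Neuron. Of 8 genes tested from a list of elongation factors and related genes, 7 were higher and 1 lower in the immune class. Of all genes, 22.5% were higher and 27.7% lower there. The lower one was Eef2k (-1.10 ± 0.28), which encodes a kinase of Eef2 and not an elongation factor. Eef1a1, which brings tRNA to the ribosome, rose by 0.67 ± 0.07 there, and was not called in VSMC (-0.14 ± 0.10). Of 9 TOP mRNAs outside the ribosome, 7 were higher and 1 lower in the immune class, and all 9 were lower in Mono 1 than in Mono 2 (8.11% of all genes). Of 44 initiation factors, 13 were higher and 4 lower in the immune class, and 11 higher and 5 lower in VSMC (28.7% and 20.6% of all genes). Of 35 ribosome biogenesis genes, 14 were higher and 1 lower in the immune class, and 1 was higher and 1 lower in EC 1 against EC 2 (11.1% and 9.23% of all genes), where 73 members were higher. Mitochondrial ribosomal proteins are the parts of the separate ribosome of mitochondria. Of 73 tested, 32 were higher and 2 lower in VSMC (28.7% and 20.6% of all genes), where no member of the family was higher. This count depended on the method: DESeq2 called 16 of them higher and 2 lower, and edgeR without the library term 18 and 2. In the immune class 12 were higher and 8 lower, in the endothelial class 2 higher and 17 lower (17.4% and 15.7% of all genes), and in Mono 1 against Mono 2 1 higher and 8 lower. In Neuron, where 5.17% of all genes were higher and 3.73% lower, 0 were called by edgeR (2 lower and 0 higher at an unadjusted p under 0.05; 0 called by DESeq2). Apart from the alternatives named, all of these are edgeR calls under the rule above.

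Cells within a population differed as well. VSMC of library 1 were ordered by their mitochondrial share and cut into 4 equal parts. The median family share was 11.6% in the lowest part, 11.7% and 10.7% in the middle parts, and 3.64% in the highest. In library 2 it was 13.8%, 13.8%, 13.1% and 7.47%. Fibro 1 went from 10.5% to 5.30% and from 11.7% to 8.77%, lowest to highest part, and Fibro 2 from 14.3% to 7.99% and from 19.2% to 12.4%. In Mono 1 the change was small, 13.9% to 11.4% and 16.2% to 15.8%.

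In VSMC 22.2% of cells in library 1 (exact 95% interval 19.8% to 24.8%) and 7.20% in library 2 (5.71% to 8.93%) had under 5% of their UMIs in the family. These cells had a median of 15% and 17.7% mitochondrial UMIs, against 5.20% and 6.28% in the rest, and 2586 and 3653.5 UMIs against 5897.5 and 7457. The intervals cover counting error only, and the part of cell quality in the family's share was not tested.

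**Figure D5:**
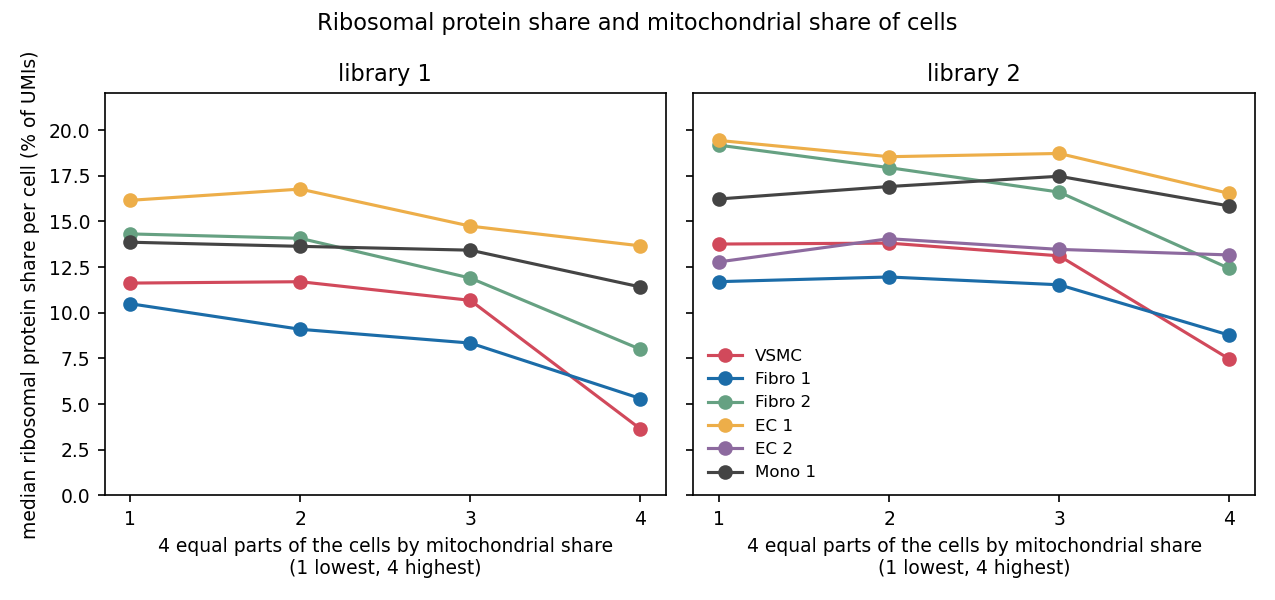
Median share of UMIs (%) from the family per cell, for cells ordered by mitochondrial share within a population and library and cut into 4 equal parts (1 lowest, 4 highest). VSMC, Fibro 1, Fibro 2, EC 1 and Mono 1 are drawn in both libraries and EC 2 in library 2; the other populations, with fewer cells, are not drawn. VSMC fall from 11.6% to 3.64% in library 1 and from 13.8% to 7.47% in library 2, with most of the fall in the last part.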

How the data were processed

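Droplet single-cell RNA-seq of 2 aortas was used. The authors deposited raw UMI counts per gene and cell and a population name per cell; Cell Ranger 2.1 is given by the submitters' processing notes, and the genome build and annotation are not given in the sources used here. Libraries were read from the barcode suffix. Counts were summed per library and population (20 sums of at least 10 cells) and fitted in edgeR 4.0.16 (R 4.3.3; filterByExpr, TMM, terms for population and for library, 9 residual degrees of freedom). The library term pairs populations that come from the same aorta. Classes are means of their populations with equal weight. No cells were removed; Scrublet in scanpy 1.11.5 called 58 and 26 doublets, left out in an alternative. The method was tested on simulated data.

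Named genes were, per comparison, the 4 called members with the largest fold in each direction (at least 50 UMIs, same direction in each library), the 8 most abundant, the 8 widest and 4 narrowest within the family, and a list of fixed genes; a few genes that the rule names are not reported here. Rpl32, Rps28 and other examples of levels follow from this rule; the windows of Rpl35 and the cells cut from Macro were chosen after values were seen. The members and lists were chosen with earlier results of these data known. Coding sequences and copies came from GENCODE vM21, start windows from RefSeq (GRCm38.p6).

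Alternatives were RLE size factors, scaling without the members, DESeq2 1.42.0, no filter, dropping the library term, single libraries, removal of doublets, thinning to 1000 UMIs, the 10% of cells at each end of depth left out, cells over 10% mitochondrial left out, equal weight of cells, clusters made without the members (leidenalg 0.10.2), only the populations compared, and adjustment over all 11 comparisons.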

Additional observations from a re-analysis of the deposited data

How the results depend on the processing

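Of 132 counts of called members under the alternatives, 119 stayed within 1.5 times the count reported. Of 154 median log2 folds of members, 109 moved by no more than the spread between libraries (SD, n = 2). Another 44 moved by more, and 1 reversed. All 100 family shares moved by less than that spread. For single libraries this was fixed in advance, since with n = 2 each lies within the SD of their mean. For the shares, the spread also includes the overall difference between the libraries, with library 2 higher in all 10 populations. Without the library term (no replicate block) the counts fell to 17 in VSMC, 9 in the fibroblast class, 12 in the endothelial class, 32 in Macro, 23 for Mono 1 against Mono 2, 10 for EC 1 against EC 2, 1 for EC 1 against EC 3, 0 for EC 2 against EC 3 and 0 for Fibro 1 against Fibro 2 (0 and 24 at an unadjusted p under 0.05 for these 2), where edgeR without the block leaves the library difference in the residual spread; 81 members stayed higher in the immune class and 78 lower in Neuron. With cells thinned to 1000 UMIs, 25 were called for Mono 1 against Mono 2 and 1 for EC 2 against EC 3. EC 2 against EC 3 also gave 10 with DESeq2 and 3 with the ends of depth left out. The cause was not tested for these. With equal weight of cells, the median log2 fold of members in endothelial against the other classes reversed to 0.021; the cause was not tested. Of 720 values of named members, 695 kept direction and call, and 25 kept direction and lost the call.

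Clusters made without the members kept 96.9% of cells in their population (Neuron 77.3%, Fibro 2 88.5%), and their counts stayed within 1.5 times. With 2 libraries, each value rests on n = 2, and the single-library fits carry no test. Macro and Neuron hold 167 and 44 cells.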

Other observations

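The libraries differed within the family. By CPM, 64 of 85 members were higher in library 2 in all 10 populations and 78 in at least 8, with a median log2 difference of 0.31. Rps12 was 0.64 higher in library 2 and Rpl39 0.56 higher, on average over populations. Rpl6l, Rps27l and Rpl15 went the other way, at -0.13, -0.11 and -0.08. Outside the rule, Gnb2l1 was higher in library 2 in all 10 populations (0.50). Which aorta each library came from is not known, and depth was also higher in library 2; the part of either was not tested.

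The 15 rows with "-ps" in their symbol, left out by the rule, held 77600 UMIs. Rpl23a-ps3 held 27800 of them, Rps12-ps3 13685 and Rpl10-ps3 8481. In the last 300 bases of Rps12, all stretches of 50 bases also occur in Rps12-ps3.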
